A study of Mus musculus with 48 samples.

Results

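Most ribosomal proteins of the mouse are encoded by a gene that is active in every cell, but a few have a paralog, which may be restricted to some tissues. The 6 paralogs examined here were Rpl3l, Rpl22l1, Rpl10l, Rpl39l, Rps27l and Rpl7l1, each set beside its parent gene (Rpl3, Rpl22, Rpl10, Rpl39, Rps27 and Rpl7). They were chosen by symbol, and all 6 paralogs and all 6 parents were found among the 22055 genes of the deposited tables through their Ensembl identifiers (version number dropped, GENCODE M21). Wild-type C57BL/6 mice on postnatal day 42 (P42) were compared with wild-type C57BL/6 embryos of day 15.5 (E15.5) in 6 organs: heart, kidney, liver, lung, brain and retina. RNA-seq of poly(A)+ RNA and Ribo-seq, which sequences the fragments (footprints) that ribosomes shield from nuclease, were made from 2 samples of each tissue and stage, 48 libraries in all. The labels do not give the animals' sex, whether tissues were pooled or whether the 2 samples of a group came from separate animals, so that p-values measure the spread between these samples, which may be technical.

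A ribosomal protein paralog replaces or accompanies its parent in the ribosome, and cells with much of the paralog can therefore build ribosomes of another composition. Rpl3l, the paralog of the protein that reaches furthest towards the catalytic centre of the large subunit, is known from heart and skeletal muscle. Rpl10l and Rpl39l are known from the testis, where they are active in male germ cells. Rps27l is a known target of p53, and Rpl22l1 is known for acting beside Rpl22 in blood cell development and RNA splicing. Rpl7l1 resembles the yeast protein Rlp7, which helps to assemble the large subunit before it leaves the nucleolus.

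The pairs differ in how far a short read can tell them apart, and the coding sequences of 2 pairs are shown because the results turn on whether their reads can be separated. Sequences are those of GENCODE M21 on GRCm38, from start codon to the last codon before the stop, with capitals at the bases that differ within the pair.
Rpl39l: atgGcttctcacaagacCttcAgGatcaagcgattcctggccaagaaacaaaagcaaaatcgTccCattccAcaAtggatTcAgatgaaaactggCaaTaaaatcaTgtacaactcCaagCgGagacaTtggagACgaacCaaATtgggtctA
Rpl39: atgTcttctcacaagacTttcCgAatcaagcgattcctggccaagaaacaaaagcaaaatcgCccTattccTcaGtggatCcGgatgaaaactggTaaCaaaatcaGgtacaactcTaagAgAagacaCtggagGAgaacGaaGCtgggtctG
Rps27l: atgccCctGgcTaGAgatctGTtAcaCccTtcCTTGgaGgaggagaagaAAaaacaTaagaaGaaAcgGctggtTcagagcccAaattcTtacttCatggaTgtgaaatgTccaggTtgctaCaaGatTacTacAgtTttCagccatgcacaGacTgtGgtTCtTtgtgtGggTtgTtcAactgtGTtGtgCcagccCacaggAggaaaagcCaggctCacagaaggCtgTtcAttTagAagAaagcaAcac
Rps27: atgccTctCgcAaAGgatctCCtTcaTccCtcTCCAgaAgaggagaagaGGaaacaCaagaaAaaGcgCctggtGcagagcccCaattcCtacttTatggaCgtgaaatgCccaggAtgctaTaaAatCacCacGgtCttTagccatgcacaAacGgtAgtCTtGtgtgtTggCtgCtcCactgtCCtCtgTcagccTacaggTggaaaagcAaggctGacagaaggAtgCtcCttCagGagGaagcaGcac
Over its 153 bases Rpl39l is 85.0% identical to Rpl39, and their longest shared stretch is 38 bases. This was the only pair with shared words of 28 bases, the length of a typical footprint: 11 of the 126 words of the Rpl39l coding sequence, or 8.73%, also occur in Rpl39. Rps27l differs from Rps27 at 60 of 252 bases, spread along the whole sequence so that no shared stretch exceeds 11 bases. In the other pairs the coding sequences were 77.2% identical for Rpl3l and Rpl3, 75.5% for Rpl22l1 and Rpl22, 84.7% for Rpl10l and Rpl10 and 70.8% for Rpl7l1 and Rpl7.

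The genes lie apart from their parents. On GRCm38, Rpl3l is at chr17:24727820-24736143 on the plus strand, with 10 exons, and Rpl3 at chr15:80077791-80091868 on the minus strand. Rpl22l1 is at chr3:28805436-28807424 (plus) and Rpl22 at chr4:152325742-152334071 (plus). Rps27l is at chr9:66946086-66949516 (plus), Rps27 at chr3:90212522-90213651 (minus), Rpl7l1 at chr17:46773907-46782672 (minus) and Rpl7 at chr1:16101295-16104662 (minus). The 2 paralogs known from testis are autosomal, whereas their parents are X-linked: Rpl10l, a gene of 1 exon, is at chr12:66283379-66284401 (minus) and Rpl10 at chrX:74270812-74273135 (plus), while Rpl39l is at chr16:10170226-10174911 (plus) and Rpl39 at chrX:37082520-37085402 (minus).

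Words of 28 bases shared with the transcripts of other genes were rare in some members and common in others. They made up 0% of the words of Rpl3l, 15.9% of Rpl39l, 43.6% of Rpl10l, 55.8% of Rpl7l1, 63.1% of Rps27l and 94.1% of Rpl22l1. Among the parents the share was 61.6% for Rpl22, 89.8% for Rpl7, 97.6% for Rpl3 and 100% for Rpl10, Rpl39 and Rps27. How reads with several matches were counted is not given in the sources used here, and the levels of genes with many such words are uncertain to that extent. Exons of Rpl22l1 also overlap the antisense gene Gm33051, and whether the counting used strand is not given either.

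The values are exon reads scaled to gene length and library total (TPM), as deposited. Multiplied by exon length they gave whole reads, from which each RNA-seq library held 22712741 to 59286607 reads and each Ribo-seq library 9909990 to 51356201. Markers of the labelled tissue were higher in that tissue than in every other tissue at both stages and in both assays. Replicate 2 of E15.5 kidney RNA-seq stood apart, because listed genes made up 48.9% of its TPM total, against 81.7% in replicate 1. The median tested gene was lower at P42 than at E15.5 by RNA-seq in all 6 tissues, with log2 differences of -1.61 in heart, -1.11 in lung, -0.89 in liver, -0.81 in kidney, -0.60 in brain and -0.23 in retina. By Ribo-seq these medians were -1.01 in heart, -0.21 in lung, -0.85 in liver, -0.74 in kidney, -0.01 in brain and 0.08 in retina. Called differences between stages are therefore also read relative to the median gene. A difference was called at an adjusted p below 0.05 (limma, Benjamini-Hochberg over all tested genes) and a log2 difference of at least 1 on the log2(TPM + 1) scale, which understates changes of low genes.

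**Figure D1:**
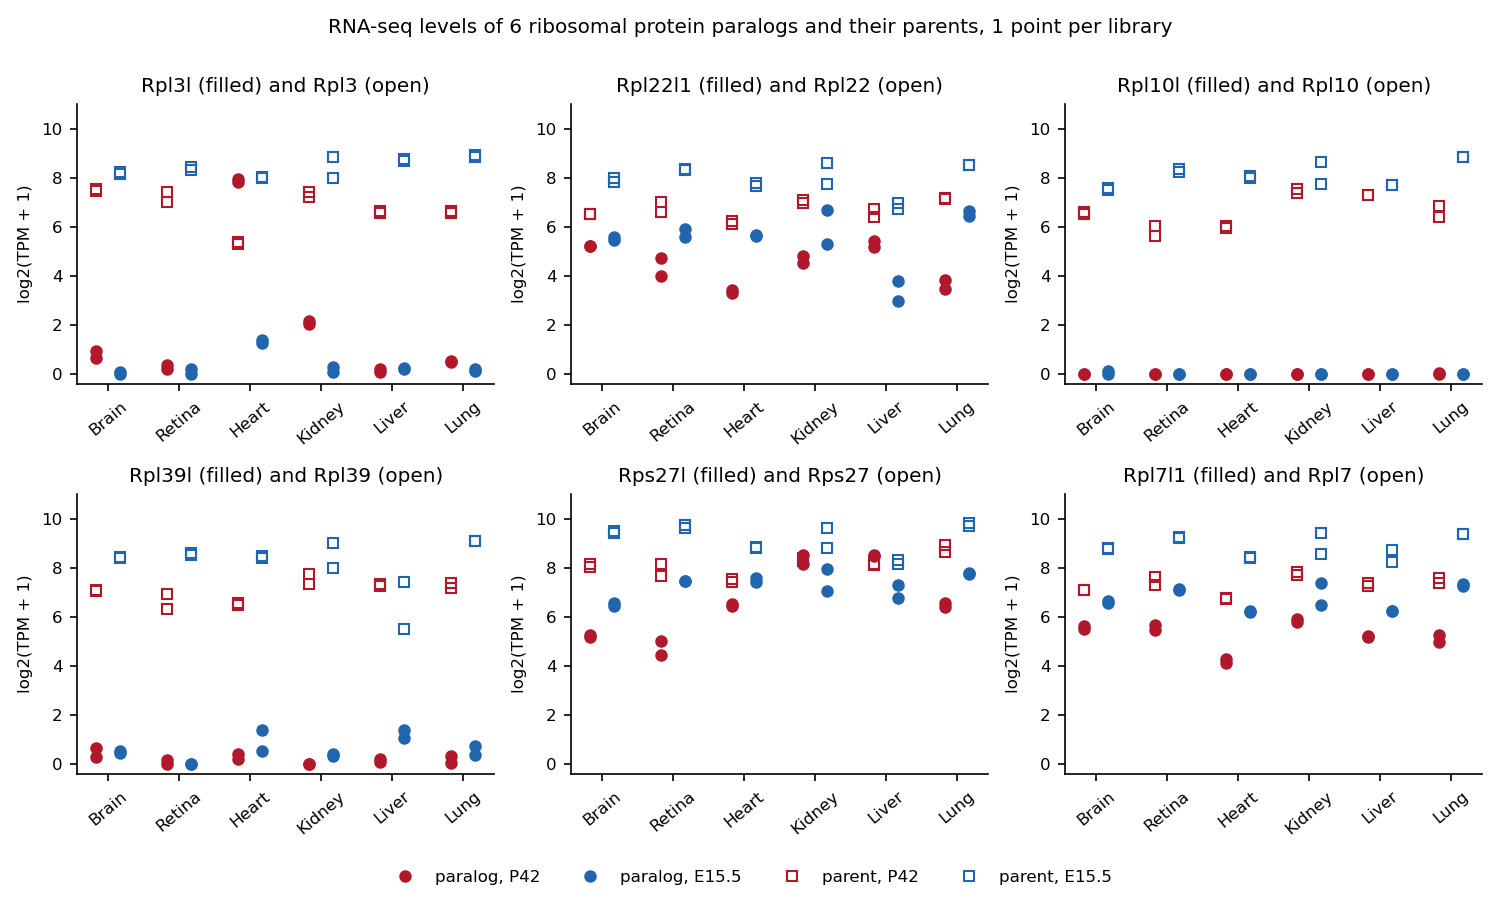
RNA-seq levels of the 6 paralogs (filled) and their parents (open) as log2(TPM + 1), 1 point per library, with P42 left of E15.5 in each tissue. Rpl3l exceeds its parent in P42 heart, Rps27l comes level with Rps27 in P42 kidney and liver, and Rpl10l and Rpl39l lie near 0 throughout.

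Rpl3l was a gene of the P42 heart in these tissues. By RNA-seq it stood at 246.83 and 227.50 TPM in P42 hearts, against 1.65 and 1.44 TPM in E15.5 hearts. The P42 libraries held 12823 and 10591 of its reads and the E15.5 libraries 51 and 38, so that both stages are above the detection limit and the groups lie far apart. The difference was 6.55 ± 0.13 (log2, SE; limma, adjusted p = 8.97e-20, n = 2 libraries a stage), or 8.16 relative to the median gene. The background to this call is that 2.73% of the genes tested in heart by RNA-seq were called higher at P42. In bulk tissue, more cells of a type and more RNA per cell cannot be told apart.

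Rpl3, its parent, went the other way in the same libraries. Rpl3 had 40.81 and 38.63 TPM in P42 hearts and 261.97 and 255.08 TPM in E15.5 hearts, a log2 difference of -2.67 that was still called relative to the median gene, at -1.06 (limma, adjusted p = 1.65e-04). Among the 78 cytosolic ribosomal protein genes in the tables, Rpl3 had the lowest log2 difference in heart by RNA-seq, rank 1 of 78, but by Ribo-seq it stood at rank 63 from the lowest, above the list's median of -3.13. In P42 heart Rpl3 was also called lower than in each of the 5 other P42 tissues, as were 6.53% of all tested genes. Rpl3 together with Rpl3l amounted to 1.98 and 1.89 times the median ribosomal protein message in the P42 hearts, where Rpl3 alone amounted to 0.281 and 0.274 times. The sum was 0.704 and 0.713 times in E15.5 hearts and 0.41 to 1.00 times in the other P42 tissues. These values rest on annotated exon lengths, which exceed the main transcript by more for Rpl3 than for Rpl3l.

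Rpl3l thereby held 85.6% of the messages of its pair in P42 heart (mean of 2 libraries, range 85.5% to 85.8%), against 0.594% in E15.5 heart. Exon lengths enter this share, because the annotated exons of Rpl3 span 3175 bases and its main transcript 1351 bases, while for Rpl3l the lengths are 1643 and 1375 bases. Counted per length of the main transcript, an alternative chosen after seeing the data, the share in P42 heart was 75.2%. In no other tissue or stage did the mean share exceed 2.01% by RNA-seq, the value of P42 kidney.

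Footprints of Rpl3l were also higher in P42 hearts. In Ribo-seq, Rpl3l had 60.84 and 61.10 TPM in P42 hearts, against 0.81 and 0.72 TPM in E15.5 hearts, from 1661 and 1399 reads against 20 and 19 reads. The difference was 5.14 ± 0.14 (log2, SE), or 6.15 relative to the median gene. Rpl3l passed the filter on low values there through its P42 level, so this difference is given as a description with no test. As background, 10.2% of the genes tested in heart by Ribo-seq were called higher. Rpl3 had 14.97 and 17.06 TPM of footprints in P42 hearts and 103.43 and 109.91 TPM in E15.5 hearts, a log2 difference of -2.66 (adjusted p = 1.85e-08), or -1.65 relative to the median gene. Rpl3l held 79.2% of the footprints of its pair in P42 heart, or 66.1% per coding length, against 0.711% in E15.5 heart.

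Among P42 tissues the order of Rpl3l by RNA-seq was heart, kidney, brain, lung, retina and liver. Its level in P42 heart exceeded that in P42 kidney by 5.80 on the log2 scale (limma, adjusted p = 2.78e-20), and kidney exceeded brain by 1.29 (adjusted p = 1.09e-08). Brain, lung, retina and liver stood below 1 TPM, too low for a difference between them to reach the threshold on this scale. By RNA-seq heart was called above each of the 5 other tissues at P42, which held for 1.42% of genes. By Ribo-seq the mean of Rpl3l was 60.97 TPM in P42 heart and at most 0.71 TPM in any other P42 tissue. Rpl3l passed the Ribo-seq filter through its P42 heart level, so this order is given as a description with no test. As background, 5.03% of genes were called above each other tissue in P42 heart by Ribo-seq. At E15.5 the heart was already called above each other tissue by RNA-seq, by at least 1.11, as were 2.9% of all tested genes. At E15.5 by Ribo-seq Rpl3l did not exceed 0.81 TPM in any library, too low for any pair of tissues to reach the threshold. Heart exceeded the next tissue, lung, by 0.69 there.

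Kidney was the other tissue in which Rpl3l was called. P42 kidneys had 3.47 and 3.09 TPM of Rpl3l message, against 0.06 and 0.23 TPM in E15.5 kidneys, from 120 and 103 reads against 1 and 5 reads. The log2 difference was 1.90 ± 0.13 (SE), or 2.71 relative to the median gene, and 13.1% of the genes tested in kidney by RNA-seq were called higher. Here too Rpl3l passed the filter through its P42 level, so this difference is given as a description with no test. Summed markers of cardiomyocytes, the contracting cells of the heart, stood at 2.29 to 2.45 TPM in P42 kidneys, against 36.7 to 63.3 TPM in E15.5 kidneys, and those of skeletal muscle at 0.934 to 1.08 TPM in P42 kidneys. Footprints of Rpl3l in P42 kidneys came to 0.87 and 0.31 TPM, below the filter for a test.

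Rpl3l is known from skeletal muscle too, and the skeletal muscle markers were low in the P42 heart libraries. Of 12 such markers, Mybpc2 (4.69 and 3.95 TPM) and Tnni2 (3.17 and 1.65 TPM) reached 1 TPM in P42 heart RNA-seq, and the other 10 were at most 0.29 TPM. Myod1, Myog and Pax7, which define skeletal muscle and its precursors, were at or near 0 TPM. The 8 cardiomyocyte markers summed to 22369 to 25454 TPM in P42 hearts and 31422 to 33151 TPM in E15.5 hearts.

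The genes whose RNA-seq levels followed Rpl3l most closely over the 24 libraries were Xirp2, an actin-binding protein of striated muscle (r = 0.963, and 0.987 over the 24 Ribo-seq libraries), Asb15 (0.948 and 0.971) and 2210407C18Rik (0.938 and 0.983). These values describe 15540 candidate genes and rest largely on the P42 hearts. With Rpl3 the correlation of Rpl3l was -0.701 by RNA-seq and -0.469 by Ribo-seq.

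**Figure D2:**
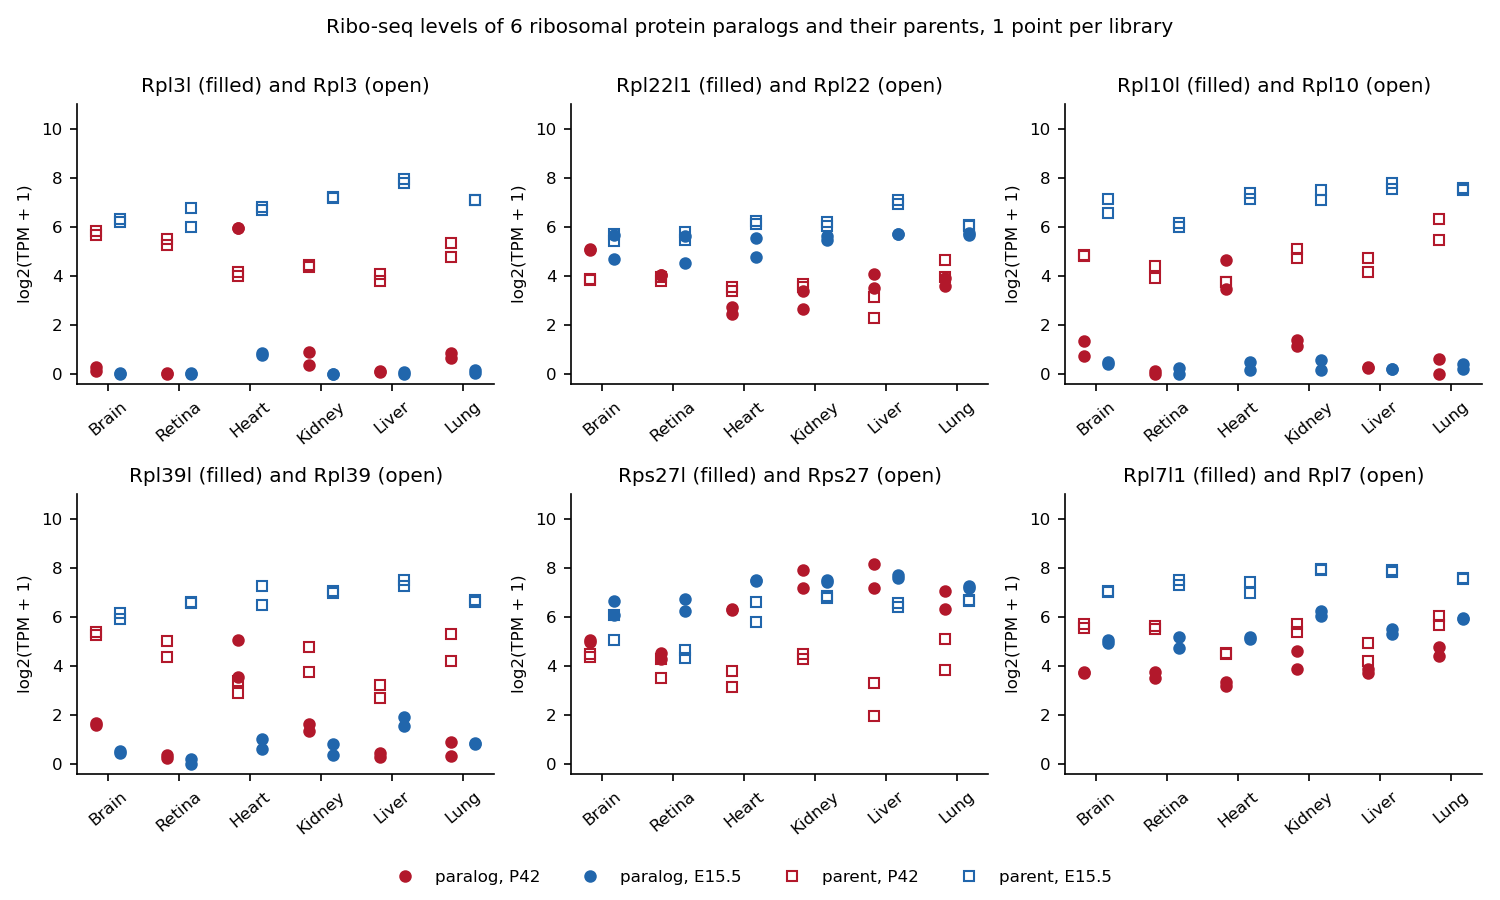
Ribo-seq levels of the 6 paralogs (filled) and their parents (open) as log2(TPM + 1), 1 point per library, with P42 left of E15.5 in each tissue. Footprints of Rps27l exceed those of Rps27 in every group, and Rpl10l and Rpl39l reach 10.24 to 32.55 TPM in P42 heart only.

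Rps27l had the highest message level of the paralogs, in TPM, in most groups, and its order among organs differed between the stages. At P42 liver and kidney had the most of it and brain and retina the least, with tissue means of 26.2 to 357 TPM, while at E15.5 the means lay between 89.2 and 217 TPM. In P42 livers the message stood at 351.05 and 362.27 TPM, against 156.50 and 108.11 TPM in E15.5 livers. The log2 difference in liver was 1.45 ± 0.24 (limma, adjusted p = 9.52e-06), or 2.34 relative to the median gene, against a background of 13.4% of liver genes called higher at P42. P42 kidneys had 362.64 and 284.36 TPM and E15.5 kidneys 249.68 and 132.43 TPM, a log2 difference of 0.82 that was not called. Relative to the median gene it was 1.62 and was called (adjusted p = 3.04e-06), and without E15.5 kidney replicate 1 the uncentred difference was 1.27 and was called as well. Without E15.5 kidney replicate 2, the library that stood apart, it was 0.36 and was not called.

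In retina and brain the message of Rps27l was lower at P42. P42 retinas had 20.65 and 31.80 TPM and E15.5 retinas 175.62 and 177.31 TPM, a log2 difference of -2.74 ± 0.24 (limma, adjusted p = 9.12e-10) and of -2.50 relative to the median gene. The background was 24.7% of genes called lower in retina and 36.0% in brain. Brains had 35.18 and 37.19 TPM at P42 and 85.94 and 92.47 TPM at E15.5, a log2 difference of -1.28 that was no longer called relative to the median gene, at -0.67.

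For heart and lung the direction depended on the scaling. P42 hearts had 90.15 and 85.90 TPM of Rps27l message and E15.5 hearts 191.71 and 167.99 TPM, a called log2 difference of -1.02 that turned to 0.59 relative to the median gene and to 0.99 under median-of-ratios scaling. Without P42 heart replicate 2, or without E15.5 heart replicate 1 (-0.93), the difference fell short of a log2 difference of 1. Lungs had 93.73 and 84.78 TPM at P42 and 218.41 and 214.87 TPM at E15.5, a called difference of -1.27 that was -0.16 relative to the median gene and 0.04 under median-of-ratios scaling. Beside these calls, 74.6% of all genes tested in heart and 53.5% in lung were called lower by RNA-seq.

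The tissue order of Rps27l at P42 was liver, kidney, lung, heart, brain and retina by both assays. By RNA-seq liver and kidney did not differ beyond the threshold, kidney exceeded lung by 1.84 (log2; limma, adjusted p = 5.67e-07), lung and heart did not differ beyond it, and heart exceeded brain by 1.26 (adjusted p = 5.17e-05). Of the 15 pairs of P42 tissues 12 were called for Rps27l by RNA-seq, against 3 of 15 at E15.5, where 50.2% of all gene and tissue pairs were called at P42 and 37.5% at E15.5. By Ribo-seq 10 pairs were called for Rps27l at P42 and 5 at E15.5, against backgrounds of 42.3% and 29.1%.

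Rps27, the parent, showed another pattern. Its message stood at 283.03 and 273.82 TPM in P42 livers and 321.58 and 287.64 TPM in E15.5 livers, which did not differ beyond the threshold. Rps27 message in P42 kidneys was 339.84 and 310.25 TPM, against 792.68 and 443.74 TPM in E15.5 kidneys. Rps27l thus made up 56.2% of the messages of its pair in P42 liver (55.4% to 57.0%), against 30.03% in E15.5 liver, and 49.7% in P42 kidney against 23.5% in E15.5 kidney. Per length of the main transcript the shares were 40.9% in P42 liver, against 18.9% in E15.5 liver, and 34.9% in P42 kidney, against 14.2% in E15.5 kidney. In P42 retina the share was 9.73%, against 17.8% in E15.5 retina, or 5.51% against 10.46% per length of the main transcript.

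Footprints of Rps27l were more numerous than those of Rps27 in every group. P42 livers had 142.55 and 284.97 TPM of Rps27l footprints and 2.93 and 8.84 TPM of Rps27 footprints, a share of 97.5% for the paralog, or 96.8% per coding length. In E15.5 livers, with 188.12 and 207.07 TPM of Rps27l and 94.50 and 83.06 TPM of Rps27, that share was 69.0%. The share also stood higher at P42 in kidney (90.1%, against 61.1% at E15.5), lung (82.4%, against 59.5%) and heart (88.4%, against 70.9%), and lower in retina (59.4%, against 79.9%). The words of 28 bases in Rps27 all occur in other genes too, so its footprint level is the less certain of the pair.

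By the exact permutation test of stage within tissues, the ratio of Rps27l to Rps27 footprints was higher at P42 by 1.32 on the log2 scale over 6 tissues (two-sided p = 0.0117, 4 tissues up and 2 down). By message the mean ratio difference was 0.41 (exact permutation, p = 0.101, 4 tissues up and 2 down). These are 2 of 12 such tests, and their p-values are unadjusted. The footprint ratio rested on kidney and liver: it was 1.08 without kidney (exact permutation, p = 0.061) and 0.80 without liver (p = 0.0702).

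The footprint level of Rps27l was not called different in liver and kidney. These tissues showed log2 differences of 0.03 and 0.07 by Ribo-seq. Retina fell by 2.07 (limma, adjusted p = 1.67e-05; P42 18.46 and 22.19 TPM, E15.5 103.91 and 75.11 TPM), where 16.2% of genes tested were called lower, and by 2.15 relative to the median gene. Brain showed -1.33, which was -1.32 relative to the median gene, and heart -1.19, both called, against 17.7% and 50.6% of genes called lower by Ribo-seq. The heart value was -0.17 relative to the median gene and 0.13 under median-of-ratios scaling, and in lung the difference of -0.53 was not called.

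Genes with the RNA-seq pattern most like that of Rps27l were Hsd17b10, a mitochondrial dehydrogenase (r = 0.926, and 0.916 by Ribo-seq), Prdx1, a peroxiredoxin (0.917 and 0.852), and Dbt, a subunit of the branched-chain keto acid dehydrogenase (0.907 and 0.802), over 24 libraries each. With Rps27 the correlation was 0.379 by RNA-seq and 0.389 by Ribo-seq. Of 21 other p53 targets, 20 were tested in liver by RNA-seq, where 3 were called higher and 7 lower, with a median log2 difference of -0.77 against -0.89 for all tested genes. Of all genes tested in liver 13.4% were called higher and 47.0% lower, so that the targets' share of higher calls lay near the background. Perp (2.77) and Fas (2.03), which act in cell death, had the largest positive differences there, and Btg2 (-3.78) and Cdkn1a (-2.13), which restrain the cell cycle, the largest negative ones. In kidney 5 of 20 were called higher and 8 lower, with a median of -0.83 against -0.81, and in retina 2 of 17 higher and 5 lower, with a median of -0.06 against -0.23. The backgrounds were 13.1% higher and 43.9% lower in kidney and 18.6% higher and 24.7% lower in retina.

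Rpl22l1 split the organs by stage. Its message was higher at P42 than at E15.5 in liver and lower in lung, heart, kidney and retina, and brain showed no called difference. P42 livers had 35.47 and 41.78 TPM, against 13.13 and 7.005 TPM in E15.5 livers, a log2 difference of 1.89 ± 0.32 (limma, adjusted p = 1.10e-05) and of 2.78 relative to the median gene. P42 lungs had 13.30 and 10.09 TPM, against 98.86 and 85.58 TPM in E15.5 lungs, a difference of -2.88 (adjusted p = 2.61e-08) and of -1.78 relative to the median gene. Of all genes tested by RNA-seq, 13.4% were called higher in liver and 53.5% lower in lung.

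In heart, kidney and retina Rpl22l1 message was also called lower. P42 hearts had 8.94 and 9.90 TPM and E15.5 hearts 50.33 and 48.65 TPM, a log2 difference of -2.28 that was -0.67 and not called relative to the median gene. P42 retinas had 15.04 and 25.97 TPM and E15.5 retinas 47.51 and 59.08 TPM, with -1.38 as measured and -1.14 relative to the median gene, both called. In kidney, with 27.26 and 22.20 TPM at P42 and 102.34 and 38.52 TPM at E15.5, the called difference of -1.32 was -0.51 relative to the median gene. It was -2.01 without E15.5 kidney replicate 2, the library that stood apart, and -0.63 and not called without replicate 1. Among all tested genes 43.9% were called lower in kidney, 74.6% in heart and 24.7% in retina by RNA-seq.

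The E15.5 liver stood out for Rpl22l1 in another way. By RNA-seq Rpl22l1 was called lower in E15.5 liver than in each of the 5 other E15.5 tissues, the nearest being brain (log2 difference 2.13; adjusted p = 2.30e-06), as were 13.4% of all genes in E15.5 liver. By Ribo-seq E15.5 liver was not low: it had 50.93 and 51.18 TPM, and none of the 15 pairs of E15.5 tissues was called. The ratio of footprint TPM to message TPM was 0.346 in P42 liver and 5.07 in E15.5 liver. In the other tissues this ratio lay between 0.299 (kidney) and 1.08 (lung) at P42 and between 0.552 (lung) and 0.824 (brain) at E15.5, so that only the E15.5 liver lay outside their range. The E15.5 liver also had the highest ratio for every parent, among them Rpl22 (1.11) and Rpl39 (1.55), and for Rps27l (1.49). Rpl39 message was likewise called lower in E15.5 liver than in each other E15.5 tissue.

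Translational efficiency, the footprint level over the message level, was tested where mean message reached 5 TPM at each stage, which left 18 combinations of paralog and tissue. Of these 2 were called lower at P42 and 0 higher, both lower calls in liver: Rpl22l1 by -3.78 ± 0.51 (log2, SE; limma, adjusted p = 1.08e-06) and Rps27l by -1.42 ± 0.41 (adjusted p = 8.14e-03). In liver 19.6% of the genes tested were called lower in efficiency, and the median tested gene stood at -0.30. The Rps27l value was -0.92 and not called without P42 liver Ribo-seq replicate 1, and -1.15 and not called without E15.5 liver RNA-seq replicate 2. Rpl3l had too little message at E15.5 for this test, in heart as elsewhere. Its footprint to message ratio in heart was 0.257 at P42 and 0.492 at E15.5.

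The parents were called lower in efficiency more widely, in 18 of 36 combinations. All 6 were called in liver, from -1.80 for Rpl3 to -5.25 for Rpl39, with Rpl22 at -4.00 and Rps27 at -3.72. In heart 5 of the 6 parents were called lower and in kidney 5, against 0 of 3 tested paralogs in each, with 4.94% of genes called lower in heart and 4.37% in kidney. Rpl10 was called in brain and Rps27 in lung, against backgrounds of 2.28% and 1.28%. Whether paralog and parent differ in this respect was not tested. Of the 78 cytosolic ribosomal protein genes 78 were called lower in efficiency in liver, 65 in heart, 61 in kidney, 26 in lung, 21 in brain and 0 in retina, where 6 were called higher.

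By Ribo-seq Rpl22l1 was lower at P42 in every tissue except brain. Liver had 10.59 and 16.11 TPM of footprints at P42 and 50.93 and 51.18 TPM at E15.5, a called log2 difference of -1.89 (limma, adjusted p = 1.18e-04) and of -1.04 relative to the median gene, against 44.0% of liver genes called lower. Heart, kidney and lung showed called differences of -2.53, -2.52 and -1.94, against 50.6% of genes called lower in heart, 40.2% in kidney and 22.8% in lung. Relative to the median gene they were -1.52 in heart, -1.79 in kidney and -1.73 in lung, and all were still called. In brain, with 33.56 and 32.33 TPM at P42 and 49.62 and 25.27 TPM at E15.5, the stages overlapped and the difference was -0.10. Retina was at -1.05, or -1.13 relative to the median gene, a call lost without P42 retina Ribo-seq replicate 1, without replicate 2 or without E15.5 replicate 1, and without the last the value was -0.51.

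P42 brain was the only tissue called above each of the 5 other P42 tissues for Rpl22l1 footprints, and the margin to the next tissue, retina, was 1.04 (log2; limma, adjusted p = 0.0206). Such a pattern held for 10.9% of all genes in P42 brain by Ribo-seq. Rpl22l1 held 70.9% of the footprints of its pair in P42 brain, against 43.3% in E15.5 brain, and 70.3% in P42 liver, against 28.7% in E15.5 liver. By message the shares were 28.6% in P42 brain and 29.2% in P42 liver, against 16.1% in E15.5 brain and 7.94% in E15.5 liver. These shares depend on the lengths used: per length of the main transcript the message shares were 50.5% in P42 brain and 51.2% in P42 liver, against 32.7% in E15.5 brain and 17.9% in E15.5 liver. Per coding length the footprint shares were 63.6% and 62.9% in P42 brain and liver, against 35.5% and 22.4% in E15.5 brain and liver. Rpl22 itself had 3.88 and 7.80 TPM of footprints in P42 livers and 119.96 and 134.05 TPM in E15.5 livers.

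The ratio of Rpl22l1 to Rpl22 differed between stages by footprint but not detectably by message. By footprint the mean log2 difference over 6 tissues was 0.78 (exact permutation, two-sided, p = 0.00999, 4 tissues up and 2 down), and by message 0.16 (p = 0.578, 3 up and 3 down). The first rested on brain and liver, since without either the p was 0.0599. Naa50 (r = 0.914), Mrps2 (0.905) and Ptges3 (0.904), which encode an acetyltransferase, a mitochondrial ribosomal protein and a chaperone partner, had the RNA-seq patterns most like that of Rpl22l1 over 24 libraries, with 0.786, 0.676 and 0.905 by Ribo-seq. Rpl22 correlated with it at 0.759 by RNA-seq and 0.814 by Ribo-seq.

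**Figure D3:**
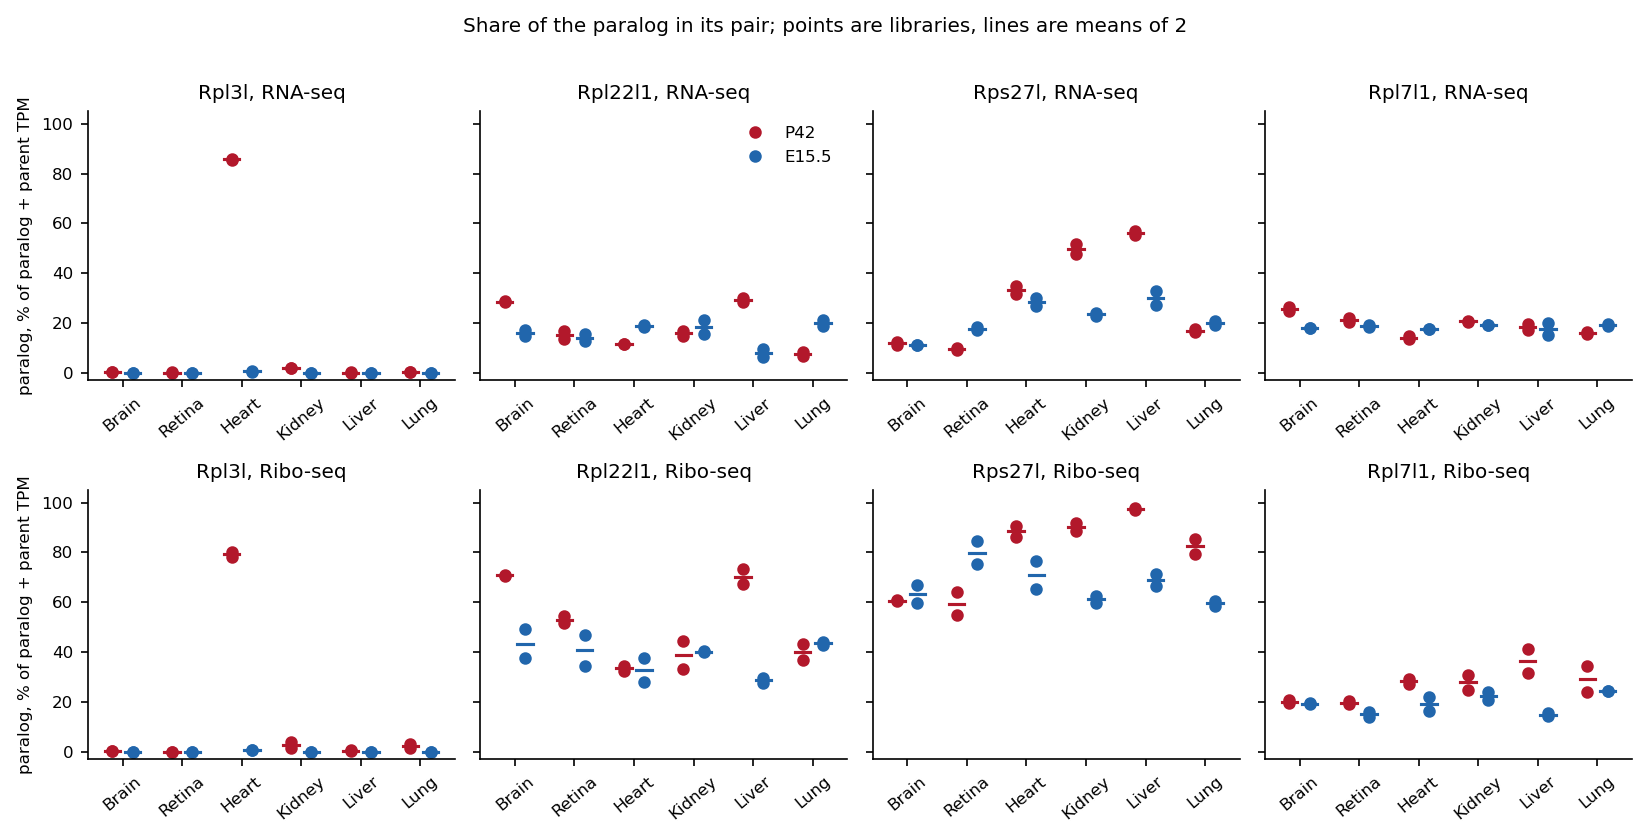
Share of the paralog in its pair, in percent of paralog plus parent TPM, for RNA-seq (above) and Ribo-seq (below). Points are libraries, short lines the means of 2, and P42 stands left of E15.5: Rpl3l reaches 85.6% of messages in P42 heart, and Rps27l 97.5% of footprints in P42 liver.

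Rpl7l1 was not restricted to some of these tissues, and neither were Rps27l and Rpl22l1, which reached 1 TPM in every library of both assays. Like Rps27l, Rpl7l1 reached 5 TPM in every library of both assays, and its message was called lower at P42 in all 6 tissues. The largest difference was in lung, with 37.67 and 30.51 TPM at P42 and 160.84 and 154.18 TPM at E15.5 (log2 difference -2.18; limma, adjusted p = 1.83e-09), and the smallest in brain, with 44.87 and 48.55 TPM at P42 and 94.33 and 100.15 TPM at E15.5 (-1.04). Of all genes tested by RNA-seq, 24.7% (retina) to 74.6% (heart) were called lower. Relative to the median gene the difference of Rpl7l1 was called in lung (-1.07) and retina (-1.32) only. In liver the difference of -1.05 turned to 0.12 under median-of-ratios scaling, with 47.0% of all liver genes called lower. Its brain call was lost without P42 replicate 1 or E15.5 replicate 2 and its kidney call without E15.5 replicate 1 (-0.64).

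Rpl7l1 footprints were called lower at P42 in all 6 tissues as well, by 1.91 in kidney, 1.88 in heart, 1.59 in liver, 1.36 in lung, 1.30 in retina and 1.27 in brain on the log2 scale. Of all genes tested by Ribo-seq, 40.2% were called lower in kidney, 50.6% in heart, 44.0% in liver, 22.8% in lung, 16.2% in retina and 17.7% in brain. Relative to the median gene heart (-0.87) and liver (-0.74) were no longer called. The share of Rpl7l1 in its pair lay between 14.1% and 25.5% of messages and between 14.9% and 36.5% of footprints over the 12 groups. Shares per main transcript or coding length were not computed for this pair. The annotated exons of Rpl7l1 span 3495 bases and its main transcript 2606 bases, against 2687 and 1163 bases for Rpl7. The values of Rpl7l1 also did not give whole reads, so the level of this share is uncertain. The mean ratio to Rpl7 differed between stages by 0.66 by footprint (exact permutation, two-sided, p = 4.29e-05, the smallest this design can give, 6 tissues up) and by 0.08 by message (p = 0.358, 4 up and 2 down). Of 15 pairs of tissues, 3 were called for Rpl7l1 at P42 and 2 at E15.5 by RNA-seq, against 50.2% and 37.5% of all gene and tissue pairs. By Ribo-seq 1 pair was called at P42 and 4 at E15.5, against backgrounds of 42.3% and 29.1%.

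Over the 24 RNA-seq libraries Rpl7l1 moved most closely with Trim27 (r = 0.983, and 0.926 by Ribo-seq), Wdr36, a factor of small-subunit assembly (0.981 and 0.823), and Cct2, a chaperonin subunit (0.974 and 0.829). Rpl7 ranked 33 of the 15540 candidates, at 0.958 by RNA-seq and 0.914 by Ribo-seq. The 29 factors that assemble the large subunit, the process in which the yeast relative of Rpl7l1 acts, were called lower at P42 by RNA-seq in numbers that differed between tissues. There were 29 such calls in heart, where 74.6% of all tested genes were called lower, 26 in lung (53.5%), 22 in kidney (43.9%), 18 in liver (47.0%), 11 in retina (24.7%) and 9 in brain (36.0%). Their median was below that of all tested genes in every tissue, by 0.18 in heart and by 0.95 in lung on the log2 scale. Sbds, which helps to release Eif6 from the new large subunit, was the exception, called higher in brain (1.18) and lung (1.22).

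Markers of dividing cells stood lower at P42 than at E15.5 in every tissue. Summed over the 8 markers, the message stood at 6.91 to 38.2 TPM in P42 libraries, against 271 to 1796 TPM in E15.5 libraries, and footprints at 7.59 to 54.0 TPM in P42 libraries, against 246 to 1354 TPM in E15.5 libraries. The tissues' own cells changed too: the 4 hepatocyte markers summed to 127710 to 135421 TPM in P42 livers and 39629 to 44570 TPM in E15.5 livers, and the 4 markers of kidney epithelium to 3214 to 3670 TPM in P42 kidneys and 247 to 384 TPM in E15.5 kidneys. The part of these shifts in the differences of Rps27l, Rpl22l1 and Rpl7l1 was not tested.

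**Figure D4:**
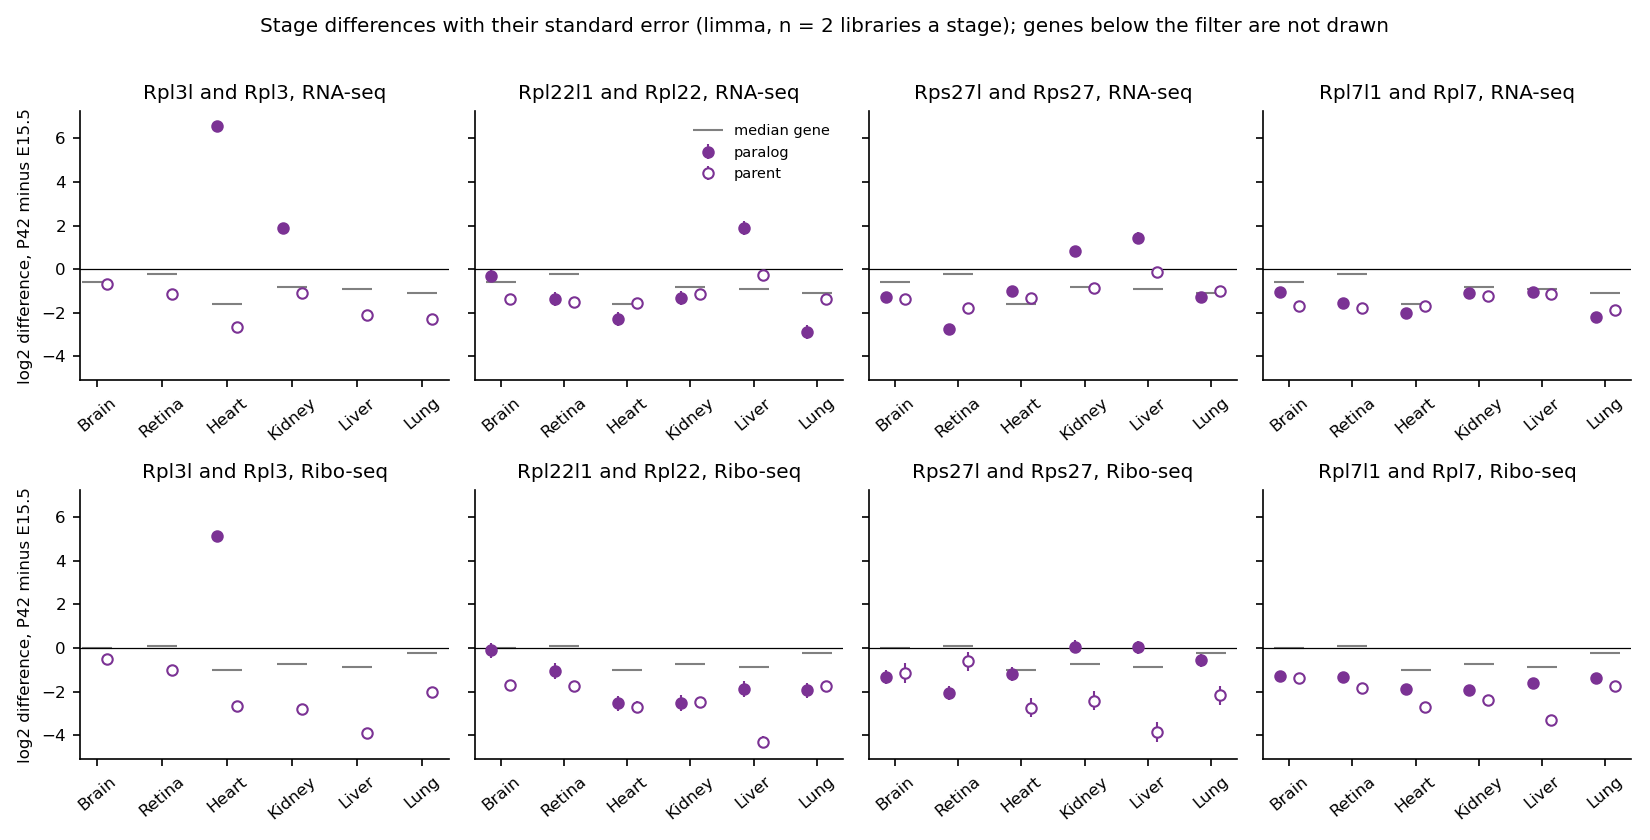
Log2 differences, P42 minus E15.5, of 4 paralogs (filled) and their parents (open) by RNA-seq (above) and Ribo-seq (below), with the standard error from limma and the median tested gene as a grey line. Rpl3l stands at 6.55 in heart, Rpl22l1 and Rps27l lie above 0 in liver by RNA-seq, and the parents lie below 0.

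Rpl10l and Rpl39l, the paralogs known from testis, had almost no message. Rpl10l was listed at 0 in 22 of 24 RNA-seq libraries and had at most 1 read in the others. Rpl39l did not exceed 1.66 TPM in any RNA-seq library. With so few reads neither passed the filter for a test between stages by RNA-seq in any tissue.

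Their footprints were another matter in P42 heart. Rpl10l had 10.24 and 24.41 TPM in P42 heart Ribo-seq, from 174 and 348 reads, and at most 0.52 TPM in every E15.5 library, with 2 and 7 reads in E15.5 hearts. Rpl39l had 10.72 and 32.55 TPM in P42 hearts, from 148 and 377 reads, and at most 1.04 TPM in E15.5 libraries other than liver. The P42 heart libraries differ widely from each other for either gene, but both lie above all other libraries. The log2 differences in heart were 3.74 for Rpl10l and 3.47 for Rpl39l, or 4.75 and 4.49 relative to the median gene. Both genes passed the filter on low values there through their P42 level, so these differences are given as a description with no test.

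The same libraries held footprints of male germ cell genes. The 14 germ cell markers, among them Ldhc, a sperm form of lactate dehydrogenase, and Prm1, a protamine that packs sperm DNA, summed to 862 to 2011 TPM in P42 heart Ribo-seq, and 14 of 14 reached 1 TPM. Ldhc had 215 and 502 TPM and Prm1 127 and 290 TPM. Other P42 Ribo-seq libraries had summed values of 82.3 to 126 TPM in brain, 97.6 to 155 in kidney, 19.4 to 24.3 in liver, 7.57 to 56.7 in lung and 1.24 to 9.07 in retina, and the E15.5 Ribo-seq libraries 0.541 to 6.02 TPM. Footprints of other tissues were found in the P42 heart libraries as well. Hepatocyte markers summed there to 260 to 687 TPM of footprints, beside 0.391 to 0.9797 TPM of message. Markers of lung epithelium summed to 110 to 358 TPM of footprints, beside 0.016 to 0.034 TPM of message. P42 heart was not alone in this. In P42 kidneys markers of lung epithelium summed to 171 to 750 TPM of footprints, beside 0.311 to 0.385 TPM of message. In E15.5 kidneys cardiomyocyte markers summed to 374 to 1163 TPM of footprints, beside 36.7 to 63.3 TPM of message.

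In RNA-seq of P42 hearts the germ cell markers summed to 20.97 to 24.01 TPM, nearly all of it Sycp3 (20.7 and 23.3 TPM), and the other 13 were at most 0.16 TPM. In P42 heart, 305 genes had at least 5 TPM of footprints with less than 0.5 TPM of message, against 3 to 72 genes in the other 11 combinations of tissue and stage. Rpl10l amounted to 1.27% and 1.30% of the summed germ cell footprints (Sycp3 left out) in the P42 hearts and Rpl39l to 1.33% and 1.73%. The part of germ cell footprints in the levels of Rpl10l and Rpl39l was not tested.

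**Figure D5:**
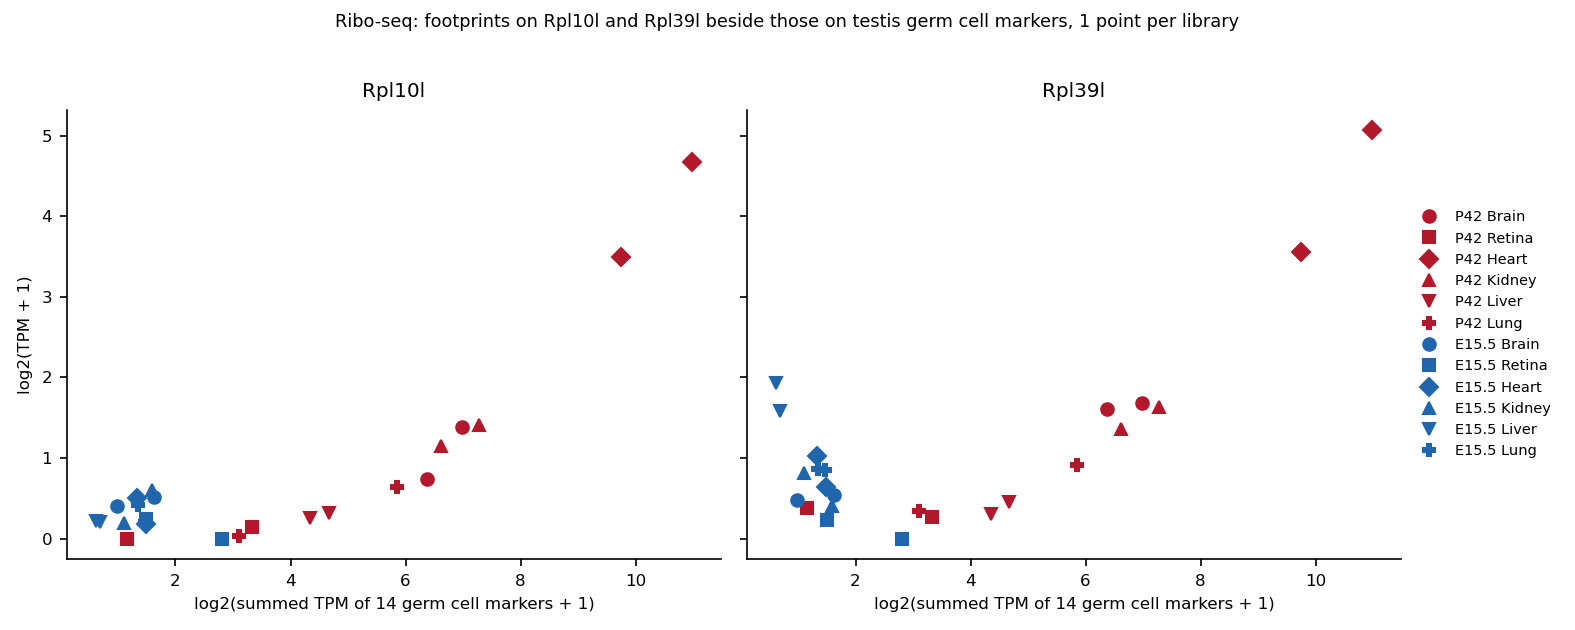
Footprint levels of Rpl10l (left) and Rpl39l (right) against the summed footprints of 14 male germ cell markers, both as log2(TPM + 1), 1 point per Ribo-seq library. The P42 heart libraries lie at the top right in both panels, and the E15.5 liver libraries are higher in Rpl39l than other E15.5 libraries at a low marker sum.

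Rpl39l passed the filter in 4 tissues by Ribo-seq. In P42 brains it had 2.20 and 2.04 TPM of footprints, against 0.40 and 0.46 TPM in E15.5 brains. The log2 difference was 1.13 as measured and relative to the median gene, and 20.2% of all genes tested in brain were called higher. In P42 kidneys it had 2.10 and 1.56 TPM, against 0.76 and 0.32 TPM in E15.5 kidneys, a difference of 0.89 that was not called, but that was called relative to the median gene (1.62) and without P42 kidney replicate 2 or without E15.5 kidney replicate 1 (1.09). In both tissues Rpl39l passed the filter through its P42 level, so these differences are given as a description with no test. The germ cell markers moved with Rpl39l. They summed to 82.3 to 126 TPM of footprints in P42 brains, with 14 of 14 at 1 TPM or more, against 0.967 to 2.07 TPM in E15.5 brains, with 0 of 14. In P42 kidneys the sum was 97.6 to 155 TPM, with 13 to 14 of 14 at 1 TPM or more, against 1.14 to 2.00 TPM in E15.5 kidneys, with 0 of 14. Their part in the brain and kidney values of Rpl39l was not tested. In liver Rpl39l was lower at P42, with 0.24 and 0.37 TPM in P42 livers and 1.99 and 2.82 TPM in E15.5 livers. The difference of -1.37 was -0.52 and not called relative to the median gene. Rpl39l passed the filter there through its E15.5 level, so this too is a description with no test. The E15.5 liver value came from 32 and 42 reads, and by RNA-seq E15.5 livers also had 18 and 13 reads.

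With the P42 heart Ribo-seq libraries left out, an alternative chosen after seeing the data, Rpl10l was not tested in any tissue. In P42 tissues the order of Rpl10l footprints after heart was kidney, brain, lung, liver and retina, and for Rpl39l brain, kidney, lung, liver and retina. No neighbours in this order after heart were called for either gene, but pairs further apart were. Of the 15 pairs of P42 tissues, 6 were called for Rpl10l and 10 for Rpl39l by Ribo-seq. As background, 42.3% of all gene and tissue pairs were called. For both genes these calls include heart above each of the 5 other tissues, a pattern of 5.03% of all genes. Rpl10 and Rpl39, the X-linked parents, had 12.40 and 12.37 TPM and 9.65 and 6.40 TPM of footprints in P42 hearts. Rpl10l thus held 55.8% of the footprints of its pair there (45.2% to 66.4%), or 39.4% per coding length (29.1% to 49.6%). For Rpl39l the share was 68.1% (52.6% to 83.6%), or 56.9% per coding length (39.2% to 74.7%). These are the libraries with germ cell footprints, and in P42 hearts neither paralog exceeded 0.34 TPM of message.

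The ratios of Rpl10l and Rpl39l to their parents differed between stages by 3.32 and 3.24 by footprint and by 1.48 and 0.78 by message (log2, P42 minus E15.5, mean of 6 tissues). Outside P42 heart Rpl10l footprints did not exceed 1.67 TPM and Rpl39l footprints 2.82 TPM, and with paralog levels near 0 these ratios follow the parents' levels by construction, by footprint as well as by message. In P42 heart they rest on the libraries with germ cell footprints. The ratio of Rpl3l to Rpl3 differed by 3.28 by message and 3.26 by footprint, with the same limit outside heart, since Rpl3l was below 1 TPM there except for P42 kidney message. No p-value is given for these ratios.

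Counted together, 20 of the 36 combinations of paralog and tissue could be tested between stages by RNA-seq, of which 4 were called higher at P42 and 14 lower, and 36 of the parents' 36, of which 0 were called higher and 26 lower. Of all genes tested by RNA-seq 24.7% (retina) to 74.6% (heart) were called lower. The 4 higher calls were Rpl3l in heart and kidney and Rpl22l1 and Rps27l in liver. In lung 0 of 3 tested paralogs was called higher, against 10.1% of all genes, in brain 0 of 3, against 11.7%, and in retina 0 of 3, against 18.6%. By Ribo-seq 24 combinations were tested, of which 4 were called higher (Rpl3l, Rpl10l and Rpl39l in heart, Rpl39l in brain) and 15 lower, with 16.2% (retina) to 50.6% (heart) of all genes called lower. All 4 higher calls by Ribo-seq, and that of Rpl3l in kidney by RNA-seq, were of genes that passed the filter through their P42 level. The shares of all genes called higher by Ribo-seq were 12.2% in kidney, 10.2% in liver, 18.6% in lung and 21.3% in retina, where no paralog was called higher. Of the 14 lower calls by RNA-seq, 5 held relative to the median gene.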

How the data were processed

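Per the submitters' processing notes, CASAVA 1.8.2, cutadapt 1.8.1, TopHat2 2.0.14, Subread, featureCounts 1.6.2 and GRCm38.p6 were used. The authors deposited exon-level TPM, with 4 tables that each hold the 12 libraries of 1 stage by 1 assay. Neither strand setting nor annotation release is given in the sources used here. Of 22055 listed genes, 21952 matched GENCODE M21. TPM multiplied by M21 exon length gave whole reads within 0.05 for 95.3% to 96.1% of values up to 1000 reads, though not for Rpl7l1, for which 4 of 48 values were whole.

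From these values log2(TPM + 1) was fitted with limma 3.58.1 in R 4.3.3 (variance trend, 12 groups an assay with 12 residual degrees of freedom, 24 over both assays). A gene was tested where at least 2 of 24 libraries reached 1 TPM, and between stages where its mean in the tissue also reached 1 TPM. Ratios of paralog to parent used all 46656 arrangements of stage labels within tissues. Python 3.11.15, numpy 2.4.6, pandas 2.3.3 and matplotlib 3.10.9 were used otherwise, and the scripts were tested on simulated data. The members and gene lists were chosen with earlier results of these data known. Other genes were named by rule: the 3 with the highest Pearson r to a member over the RNA-seq libraries among genes with 5 TPM in at least 2 of them, and up to 2 largest changes in each direction of a list. The main fits did not pair samples by replicate number. Deviations of libraries with the same number correlated at -0.415 to 0.306 in RNA-seq and -0.518 to 0.556 in Ribo-seq. Between RNA-seq and Ribo-seq of a tissue and stage they correlated at -0.206 to 0.333. Such correlations cannot decide whether samples with the same number share an animal or a batch. Alternatives were pseudocounts of 0.25 and 4 TPM, other scalings and filters, a replicate block, no variance trend, a tissue's libraries alone, and each library or tissue left out. After seeing the data, 3 were added: voom on the recovered reads, P42 heart Ribo-seq left out, and shares per main transcript or coding length.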

Additional observations from a re-analysis of the deposited data

Results flagged for a closer look

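Each paralog that was tested in several tissues was flagged because its stage difference was not the same in 2 of them, by an interaction term in limma. The tissues set against each other were the extremes, chosen after their values were seen, and the adjusted p-values do not account for that choice. By RNA-seq the stage difference of Rpl3l in heart exceeded that in kidney by 4.64 (log2). No p-value is given for it, since Rpl3l passed the kidney filter through its P42 level. For Rpl22l1 message the difference in liver (1.89) exceeded that in lung (-2.88) by 4.78 (adjusted p = 5.07e-09), and the directions were opposite. Rps27l message showed 4.18 between liver (1.45) and retina (-2.74), again in opposite directions (adjusted p = 2.94e-10). For Rpl7l1 message the gap between brain (-1.04) and lung (-2.18) was 1.14 (adjusted p = 1.71e-03).

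By Ribo-seq the gap was 2.43 for Rpl22l1 between brain (-0.10) and heart (-2.53; adjusted p = 4.91e-04), and 2.14 for Rps27l between kidney (0.07) and retina (-2.07; adjusted p = 5.42e-04). Rpl39l footprints showed 4.85 between heart (3.47) and liver (-1.37), where the heart value rests on the libraries with germ cell footprints. No p-value is given here either, since Rpl39l passed the heart filter through its P42 level.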

How the results depend on the processing

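Under median-of-ratios scaling the paralogs' lower calls numbered 4 by RNA-seq, against 14 as deposited, and 9 by Ribo-seq, against 15, and their higher Ribo-seq calls 7, against 4. Lower RNA-seq calls were 9 without mitochondrially encoded genes and 5 relative to the median gene. Without P42 heart Ribo-seq there was 1 higher Ribo-seq call, and there were 17 tissue-pair calls at P42, against 41. With an RNA-seq floor of 20 TPM there was 1 lower efficiency call, against 2. The 17 tissue-pair calls at E15.5 by RNA-seq became 8 at a pseudocount of 4 and 26 with voom, and the 12 by Ribo-seq became 22 at a pseudocount of 0.25, 6 at 4 and 4 with listed genes rescaled to an equal sum. Under median-of-ratios scaling these log2 differences turned positive: Rpl22 0.45, Rpl39 0.090, Rpl7 0.34, Rps27 0.67 and Rps27l 0.99 in heart, Rpl7 0.039, Rpl7l1 0.12 and Rps27 1.06 in liver and Rps27l 0.036 in lung by RNA-seq, and Rps27l 0.13 in heart by Ribo-seq. In heart by RNA-seq, Rps27l was also positive without mitochondrially encoded genes (0.11) and relative to the median gene (0.59), as were Rpl22 (0.052) and Rps27 (0.27) relative to it.

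Ratio differences by message changed with the tissues: Rpl22l1 was -0.024 without brain and -0.25 without liver, Rpl7l1 -0.030 without brain, and Rps27l 0.68 without retina (exact permutation p = 0.019). The Rpl39l message ratio, for which no p-value is given, was 0.31 at a pseudocount of 0.25. It was 0.67 without brain, 0.68 without heart, 0.81 without kidney, 0.65 without lung and 0.52 without retina. By footprint Rpl22l1 missed an exact permutation p of 0.05 without brain (0.61) or liver (0.45), and Rps27l without kidney (1.08) or liver (0.80). Leaving out each library in turn gave 0 to 1 higher and 1 to 5 lower efficiency calls and a Rpl39l message ratio of 0.65 to 0.90. Calls by stage ranged over 4 to 5 higher and 12 to 14 lower by RNA-seq and 3 to 5 higher and 14 to 15 lower by Ribo-seq. The cause of these shifts was not tested. With the replicate number as a block, 179 of 180 results kept their call (4 higher and 14 lower by RNA-seq), the exception being the Rps27 efficiency in kidney (-1.55), which was then called. Whether samples with the same number belong together is not given. Rpl10l had at most 1 read in any RNA-seq library.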
